A study of Mus musculus with 6 samples.

Results

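The genes described are 36 genes of glucose use and low oxygen: 21 glucose and lactate transporters, glycolytic enzymes and their direct regulators, called glycolytic genes here, and 15 other target genes of the hypoxia-inducible factors (HIF). They were listed by symbol and found through the RefSeq accession of each array probe, out of 20972 named genes with a probe, and where a gene had several probes the brightest, by mean signal, stands for it. All 36 had at least 1 probe (59 in all). In 35 of them the probe was well above background on all 6 arrays, so no gene entered through 1 group alone. The exception was Mxi1, a repressor of Myc activity, whose probe was at background throughout.

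RNA came from tibial cartilage of C57BL/6 mice, 3 labelled control and 3 labelled ADAM10 flox/flox-Col2a1-Cre (called mutants). In the mutants Cre recombinase, driven by the Col2a1 promoter of the chondrocyte lineage, acts on loxP-flanked alleles of Adam10, which encodes a membrane protease. The labels give neither the alleles that the controls carry nor the age of the mice. All levels below are on a log2 scale on which 0 is the 75th percentile of the same array, and every difference is the mutant mean less the control mean. Levels compare arrays for 1 probe and do not rank different genes by abundance.

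Adam10 read 1.61, 1.58 and 1.21 on controls 1 to 3 and 0.15, -1.70 and 0.31 on mutants 1 to 3, lower on every mutant array, by 1 probe whose place relative to the floxed part is not known. All 16 chondrocyte markers were above background on every array, Col2a1 between 9.85 and 10.10. The 6 arrays shared 1 slide and 1 scan, with between 62.4% and 65.4% of spots well above background and 0 saturated spots. The first row of the slide held the controls and mutant 1. Control 1 and mutant 2 stood farthest apart on the leading principal component (44.5% of the variance), so results are also given without them.

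Glycolysis splits glucose into pyruvate, and lactate dehydrogenase then turns pyruvate into lactate, which yields ATP without oxygen. HIF is a dimer of an oxygen-regulated alpha subunit and ARNT. With oxygen present, prolyl hydroxylases mark the alpha subunit for destruction through the VHL protein; without it, HIF binds DNA at a short core sequence and raises transcription of glucose transporters, nearly every glycolytic enzyme and genes of pH control, mitophagy, collagen hydroxylation and vessel growth. Cartilage has no blood vessels. Growth plate chondrocytes depend on HIF-1 for survival and rely largely on glycolysis.

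Most of these genes read higher in mutants, by small amounts. Of the 35 tested, 33 had a difference above 0, against 60% of all tested features. The median difference was 0.37 for the 21 glycolytic genes and 0.37 for the 14 tested HIF targets, against 0.04 for all 25494 features. For 18 of the 35 every mutant array lay above every control array, compared with 5.19% of all features, and 0 showed the reverse order (3.75% of all features). These 18 were 10 glycolytic genes and 8 other HIF targets. At an unadjusted limma p below 0.05 there were 9 higher and 0 lower, against backgrounds of 1.55% and 1.88%. After adjustment by Benjamini-Hochberg over all features, limma called 0 of the 35 genes in either direction and 0% of the features, and the adjusted p-values of the 35 genes ran from 0.987 to 0.997.

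**Figure D1:**
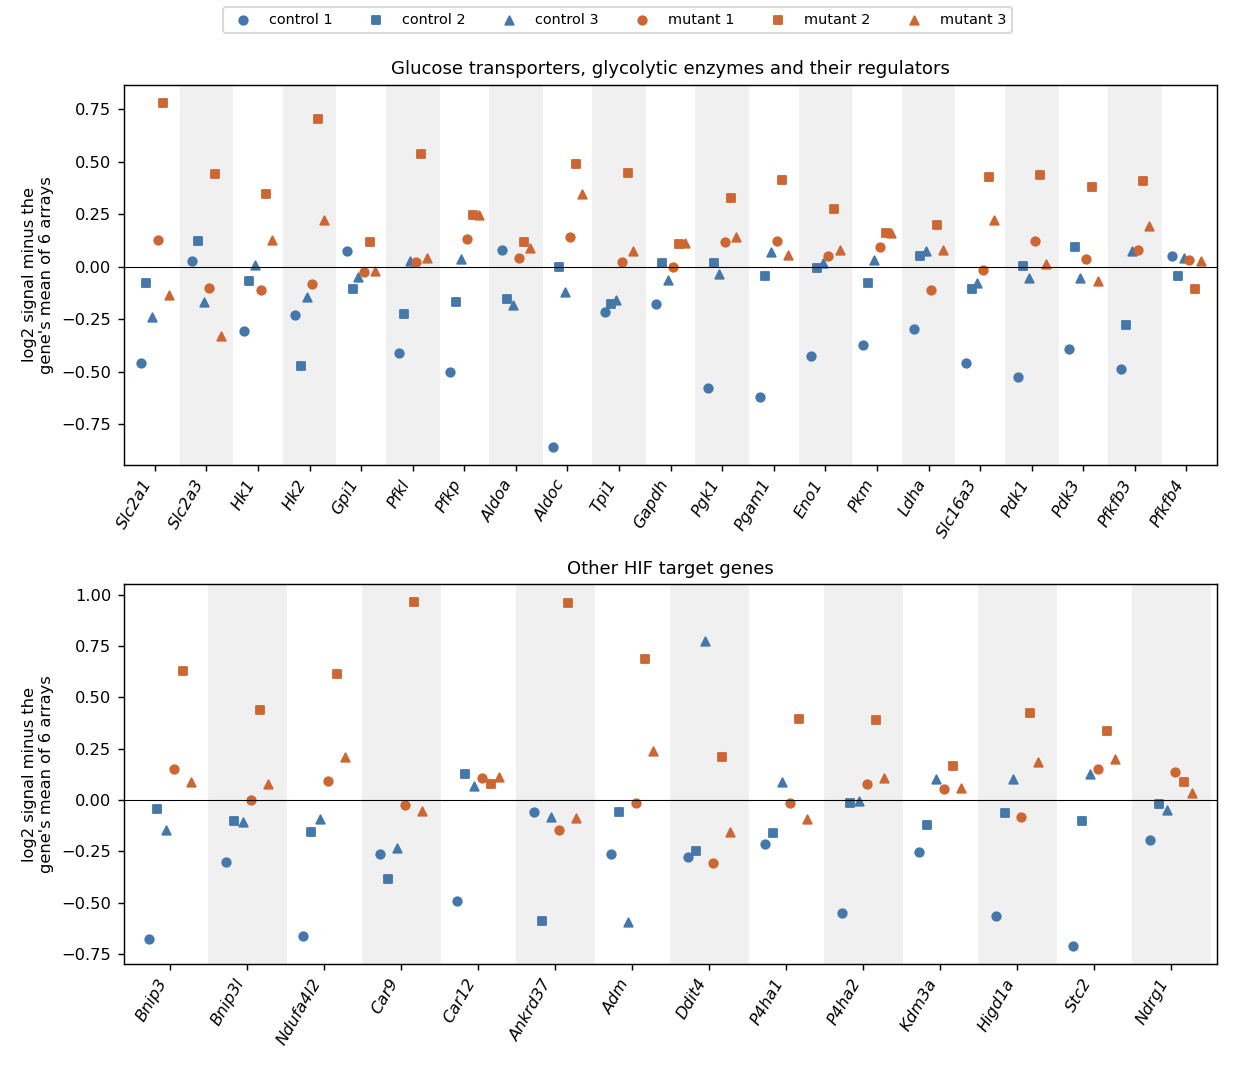
Log2 signal of each tested gene on each of the 6 arrays, minus the gene's mean over the arrays, for 21 glycolytic genes (top) and 14 other HIF targets (bottom); blue points are controls and orange points mutants, with a symbol for each mouse. Mutant 2 was the highest array for 30 of the 35 genes and control 1 the lowest for 26.

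The shift was uneven between mice. Mutant 2 read above all 3 controls for 32 of the 35 genes, mutant 3 for 24 and mutant 1 for 20. Among all features the same held for 43.0%, 23.97% and 18.3%. Mutant 2 was the highest of the 6 arrays for 30 of the 35 genes and control 1 the lowest for 26. Among all features these arrays were highest and lowest in 38.0% and 34.6% of cases. Measured against the mean of the controls, the median over the 35 genes was 0.21 on mutant 1, 0.57 on mutant 2 and 0.24 on mutant 3. Without control 1 the median difference was 0.20 for glycolytic genes and 0.21 for HIF targets, and without mutant 2 it was 0.23 and 0.22. With both arrays left out the medians were 0.13 and 0.13, against -0.02 for all features. The count of genes higher at an unadjusted limma p below 0.05 was 9 with all arrays (396 of all 25494 features). It was 1 without control 1 and 0 without mutant 2 (444 and 334 of all features). Leaving out control 2 gave 4 genes and leaving out control 3 gave 5 (293 and 559 of all features). With mutant 1 left out 6 were counted, and 3 with mutant 3 left out (401 and 387 of all features).

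HIF binds the core sequences ACGTG and GCGTG. Both were searched on both strands (also as CACGT and CACGC) in the 250 bases before each RefSeq gene start (build GRCm38.p6), for the 32 of 36 genes with an entry (all but Slc2a3, Bnip3l, Ndufa4l2 and Ndrg1). At least 1 core stood in 29 of the 32 genes, against 41.5% of 27025 genes, and in 36 of their 46 windows, against 38.6% of all windows. The members' windows had a median of 62.8% G and C and 17.5 CG pairs, compared with 52.4% and 6.0 in all windows; as both cores contain CG, the higher share moves with base composition, whose part was not tested. The palindrome CACGTG, which is also the E-box bound by Myc and clock factors, holds ACGTG on both strands and stood in 3 of the 32 genes, against 6.86% of all genes. Gpi1, Tpi1 and Car12 had no match in their windows. Upstream windows are printed for the 6 genes at an unadjusted limma p below 0.05 with 1 listed start (Hk2, Pfkp, Tpi1, Slc16a3, Bnip3, Adm) and for the well-known targets Slc2a1, Pgk1 and Car9, 5′ to 3′ on the gene's strand and ending at the base before the start, with core matches in capitals.
Hk2, chr6:82774455-82774704, minus strand: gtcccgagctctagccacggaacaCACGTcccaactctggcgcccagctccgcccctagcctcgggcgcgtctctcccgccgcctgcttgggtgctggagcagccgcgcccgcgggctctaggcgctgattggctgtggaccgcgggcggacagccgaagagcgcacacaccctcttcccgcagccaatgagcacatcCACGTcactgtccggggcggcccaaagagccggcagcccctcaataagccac
Pfkp, chr13:6648772-6649021, minus strand: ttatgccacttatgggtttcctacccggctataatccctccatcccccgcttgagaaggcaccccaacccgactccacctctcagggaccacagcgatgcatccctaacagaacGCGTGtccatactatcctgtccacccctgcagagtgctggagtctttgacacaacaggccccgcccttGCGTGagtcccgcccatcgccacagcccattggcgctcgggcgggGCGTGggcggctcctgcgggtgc
Tpi1, chr6:124814159-124814408, minus strand: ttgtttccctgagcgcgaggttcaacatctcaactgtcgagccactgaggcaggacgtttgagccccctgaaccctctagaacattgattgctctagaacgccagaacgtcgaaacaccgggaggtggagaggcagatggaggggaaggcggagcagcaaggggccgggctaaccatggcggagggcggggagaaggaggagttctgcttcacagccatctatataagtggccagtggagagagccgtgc
Slc16a3, chr11:120948817-120949066, plus strand: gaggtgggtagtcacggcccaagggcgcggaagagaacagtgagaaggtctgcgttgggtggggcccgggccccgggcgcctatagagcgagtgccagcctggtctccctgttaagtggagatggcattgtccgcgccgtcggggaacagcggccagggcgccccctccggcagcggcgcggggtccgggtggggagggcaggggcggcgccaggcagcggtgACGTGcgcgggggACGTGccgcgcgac
Bnip3, chr7:138909507-138909756, minus strand: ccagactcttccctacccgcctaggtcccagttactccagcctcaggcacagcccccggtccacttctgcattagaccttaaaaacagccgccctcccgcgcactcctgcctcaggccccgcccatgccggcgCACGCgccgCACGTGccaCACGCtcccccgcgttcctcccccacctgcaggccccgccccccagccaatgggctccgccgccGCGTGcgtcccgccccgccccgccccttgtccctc
Adm, chr7:110627407-110627656, plus strand: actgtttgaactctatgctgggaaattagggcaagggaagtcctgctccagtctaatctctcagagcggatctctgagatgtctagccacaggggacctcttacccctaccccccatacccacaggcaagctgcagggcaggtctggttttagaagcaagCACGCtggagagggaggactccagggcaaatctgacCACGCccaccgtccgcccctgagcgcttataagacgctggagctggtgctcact
Slc2a1, chr4:119108495-119108744, plus strand: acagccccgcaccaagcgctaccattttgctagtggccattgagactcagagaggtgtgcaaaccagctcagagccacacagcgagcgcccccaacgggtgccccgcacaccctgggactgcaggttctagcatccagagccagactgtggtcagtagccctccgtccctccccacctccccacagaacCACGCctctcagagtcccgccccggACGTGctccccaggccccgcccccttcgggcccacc
Pgk1, chrX:106186850-106187099, plus strand: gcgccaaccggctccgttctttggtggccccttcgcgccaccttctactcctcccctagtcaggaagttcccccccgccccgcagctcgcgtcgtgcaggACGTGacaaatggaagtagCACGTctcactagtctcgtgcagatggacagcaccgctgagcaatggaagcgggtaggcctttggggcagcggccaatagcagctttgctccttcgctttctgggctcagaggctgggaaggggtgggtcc
Car9, chr4:43506776-43507025, plus strand: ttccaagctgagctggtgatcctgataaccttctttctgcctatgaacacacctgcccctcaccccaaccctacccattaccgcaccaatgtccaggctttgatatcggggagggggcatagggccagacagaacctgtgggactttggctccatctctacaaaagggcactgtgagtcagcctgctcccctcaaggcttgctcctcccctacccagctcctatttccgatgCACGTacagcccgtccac
In these windows Hk2 and Slc16a3 each held 2 copies of ACGTG, counted on either strand, the Pfkp window held 3 of GCGTG, the single core of Car9 began 18 bases before the start, and the Tpi1 window held 0 matches. A match describes the letters and is not a measured binding site.

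Glucose enters cells through the transporters GLUT1 and GLUT3. Slc2a1, which encodes GLUT1, the main transporter of chondrocytes, read 3.59, 3.97 and 3.81 on controls 1 to 3 and 4.18, 4.83 and 3.92 on mutants 1 to 3. The groups overlapped through control 2 and mutant 3, and the difference was 0.52 (SE 0.25, 95% interval -0.09 to 1.13). It was 0.26 without mutant 2 and 0.16 without both mutant 2 and control 1. Slc2a3, the gene of GLUT3, had a difference of 0.01 (SE 0.22).

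Hexokinases trap glucose as glucose 6-phosphate. Hk2, the inducible isoform, read 1.40, 1.15 and 1.48 on controls and 1.54, 2.33 and 1.85 on mutants. Every mutant lay above every control, with mutant 1 closest to them, and the difference was 0.56 (SE 0.22, 95% interval 0.03 to 1.097), or 1.48-fold (limma adjusted p 0.987). Its difference was 0.35 without mutant 2, and 0.20 when only the first slide row was used, where mutant 1 is the sole mutant. Hk1, the constitutive isoform, overlapped between groups with a difference of 0.24 (SE 0.16), and Gpi1, glucose 6-phosphate isomerase, had 0.05 (SE 0.12) on a bright probe, with 0.07 and 0.08 on its other probes.

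Phosphofructokinase commits the sugar to glycolysis. Pfkp, the platelet-type subunit, read 1.12, 1.45 and 1.66 on controls and 1.75, 1.86 and 1.86 on mutants, without overlap. The difference was 0.42 (SE 0.16), with the larger spread among the controls, and it was 0.21 on the gene's second probe. Pfkl, the liver-type subunit, differed by 0.40 (SE 0.20), and control 3 lay within the mutants' range.

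Pfkfb3 makes fructose 2,6-bisphosphate, the strongest activator of phosphofructokinase. It read 1.95, 2.16 and 2.510 on controls and 2.515, 2.84 and 2.63 on mutants, so that the groups were separated only by the small step between control 3 and mutant 1. The difference was 0.46 (SE 0.18), and the second probe gave 0.43. Pfkfb4, its close relative and also a HIF target, had a difference of -0.03 (SE 0.11) and was 1 of the 2 genes below 0.

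Aldolase splits the sugar, and triose phosphate isomerase interconverts its products. Aldoc, the aldolase first known from brain, had the largest difference among the glycolytic genes. It read 4.85, 5.71 and 5.59 on controls and 5.85, 6.20 and 6.05 on mutants. The difference was 0.65 (SE 0.25, 95% interval 0.05 to 1.25), or 1.57-fold, with adjusted p 0.987 in limma. Control 1 lay well below the other controls, and without it the difference was 0.39. Aldoa, the aldolase of muscle and most other tissues, differed by 0.17 (SE 0.12), and control 1, at 7.86, lay within the mutants' range of 7.82 to 7.90.

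Tpi1 read 6.26, 6.30 and 6.32 on controls and 6.50, 6.93 and 6.56 on mutants. The controls lay close together, every mutant was above them, and the difference was 0.37 (SE 0.15), with 0.40 on the second probe.

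The later steps of the pathway make ATP. Pgk1, phosphoglycerate kinase, read 6.47, 7.06 and 7.01 on controls and 7.16, 7.37 and 7.19 on mutants. All mutants lay above the controls, but control 1 stood well below the other controls. The difference was 0.39 (SE 0.19), and 0.20 without control 1. Eno1 (enolase) at 0.27 (SE 0.16) and Pkm (pyruvate kinase) at 0.28 (SE 0.14) were separated in the same way. Pgam1, phosphoglycerate mutase, differed by 0.39 (SE 0.22) and overlapped. Gapdh, often used as a reference gene, differed by 0.15 (SE 0.12), and its 7 probes gave between 0.10 and 0.24.

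Pyruvate becomes lactate or enters the mitochondrion. Ldha, lactate dehydrogenase A, read 8.34, 8.68 and 8.71 on controls and 8.52, 8.83 and 8.71 on mutants, which overlapped. Its difference of 0.11 (SE 0.16) came from a very bright probe, and its 2 dimmer probes gave 0.36 and 0.36. With control 1 left out, the bright probe gave -0.0076. Slc16a3, the gene of the lactate exporter MCT4, read 5.001, 5.35 and 5.38 on controls and 5.44, 5.88 and 5.68 on mutants. The groups were separated, with a difference of 0.43 (SE 0.17), and the second probe gave 0.45.

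Pdk1 and Pdk3 encode kinases that switch off pyruvate dehydrogenase and so hold pyruvate back from the mitochondrion. Pdk1 read 0.83, 1.36 and 1.30 on controls and 1.48, 1.79 and 1.37 on mutants. Mutant 3 lay just above control 2, and the difference was 0.38 (SE 0.19). Pdk3 overlapped, at 0.23 (SE 0.19). Of the 21 glycolytic genes, 20 thus had a difference above 0, against 60% of all features. At an unadjusted limma p below 0.05, 6 were higher, against 1.55% of all features. The adjusted threshold was passed by 0 of the 21 and by 0% of all features.

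**Figure D2:**
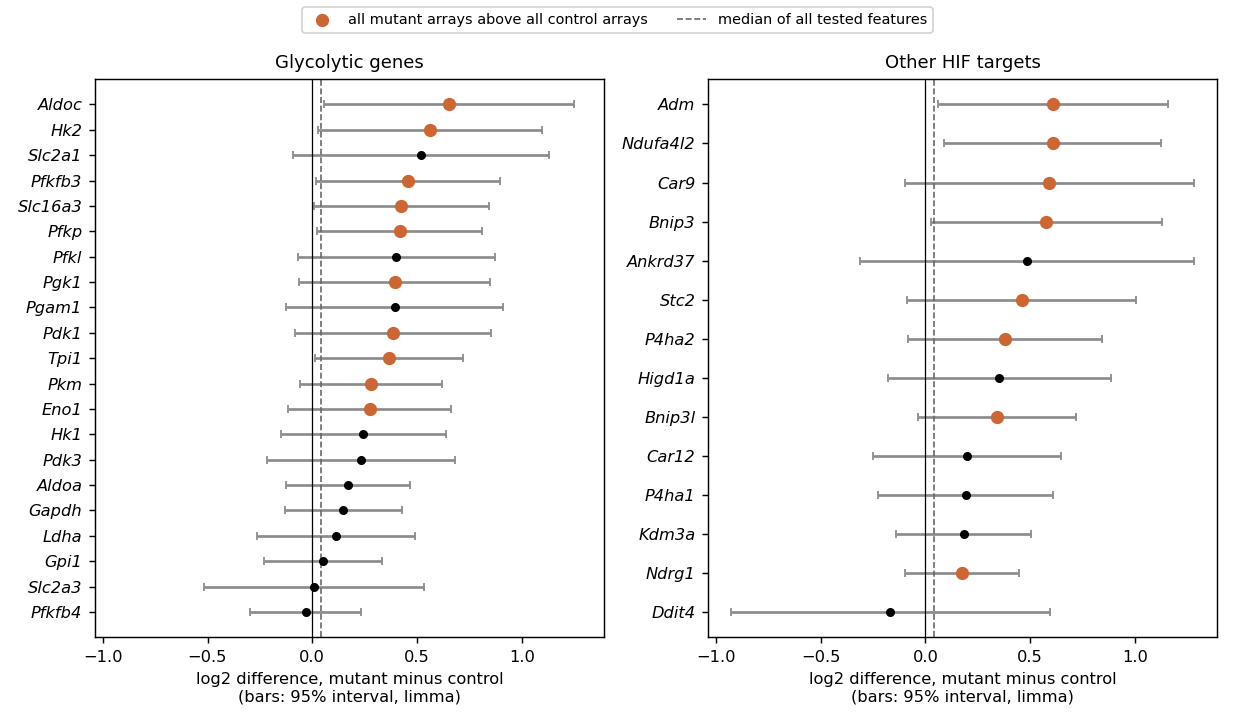
Log2 difference, mutant minus control, of each tested gene with its 95% interval from limma (n = 3 and 3), ordered by size; large orange points are genes for which all mutant arrays lay above all control arrays, and the dashed line is the median of all tested features, 0.04. Of the 35 points 33 lie above 0, and most intervals include 0.

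Among the other HIF targets, the largest differences were at Adm, Ndufa4l2, Car9 and Bnip3. Ndufa4l2, a mitochondrial protein that lowers respiration under hypoxia, read 5.49, 6.00 and 6.06 on controls and 6.25, 6.77 and 6.37 on mutants. Every mutant exceeded every control, and the difference was 0.61 (SE 0.22, 95% interval 0.09 to 1.13), or 1.52-fold. It had the smallest unadjusted p of the 35 genes, 0.0281 in the limma fit, and an adjusted p of 0.987. Without control 1 the difference was 0.43 and without mutant 2 it was 0.45.

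Bnip3 and Bnip3l encode receptors that mark mitochondria for removal by autophagy. Bnip3 read 5.86, 6.49 and 6.39 on controls and 6.69, 7.16 and 6.62 on mutants. These did not overlap, and the difference was 0.58 (SE 0.23), between 0.45 and 0.58 over its 3 probes. Bnip3l read 3.70, 3.90 and 3.90 on controls and 4.004, 4.44 and 4.08 on mutants, again without overlap, and differed by 0.34 (SE 0.16). Its 4 probes gave between 0.26 and 0.35. Higd1a, a mitochondrial protein of the hypoxia response, differed by 0.35 (SE 0.22) and overlapped through mutant 1.

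Adm, which encodes the vasodilating peptide adrenomedullin, read -1.28, -1.08 and -1.61 on controls and -1.03, -0.33 and -0.78 on mutants. Mutant 1 lay just above control 2, and the difference was 0.61 (SE 0.23, 95% interval 0.06 to 1.16), or 1.53-fold, with adjusted p 0.987 in limma. Leaving out control 1 gave 0.63 and leaving out mutant 2 gave 0.42. Stc2, the secreted glycoprotein stanniocalcin 2, read 1.14, 1.75 and 1.98 on controls and 2.01, 2.19 and 2.06 on mutants. It was separated by a narrow step above control 3 and differed by 0.46 (SE 0.23).

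Carbonic anhydrases at the cell surface handle the acid load of glycolysis. Car9 read 1.32, 1.20 and 1.35 on controls and 1.56, 2.55 and 1.53 on mutants. All mutants lay above the controls, and mutant 2 stood well above the other mutants. The difference was 0.59 (SE 0.29) and 0.26 without mutant 2. Car12 differed by 0.20 (SE 0.19), with all mutants within the range of controls 2 and 3.

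Ankrd37, an ankyrin repeat protein and sensitive HIF-1 target, was high on mutant 2 alone. It read -1.19, -1.72 and -1.21 on controls and -1.28, -0.17 and -1.22 on mutants, so mutants 1 and 3 lay within the control range. The difference was 0.49 (SE 0.33). Ddit4, an inhibitor of mTORC1 that also answers to glucocorticoids and stress, had the lowest difference of the 35 genes, -0.17 (SE 0.32), with the highest value on control 3.

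P4ha1 and P4ha2 encode the catalytic subunits of collagen prolyl 4-hydroxylase, needed for stable collagen helices. P4ha2 had separated groups and a difference of 0.38 (SE 0.19), whereas P4ha1 overlapped at 0.19 (SE 0.17). Ndrg1, a stress-responsive gene of differentiation, was separated at a small difference of 0.17 (SE 0.11). Kdm3a, a histone H3 lysine 9 demethylase, overlapped at 0.18 (SE 0.13). Mxi1 read -6.02, -6.00 and -6.55 on controls and -6.03, -5.52 and -5.33 on mutants, all at background, and was not tested.

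Of 10 genes that regulate HIF, 9 had a difference above 0, against 60% of all features, and the median was 0.21. At an unadjusted limma p below 0.05, 2 were higher, against 1.55% of all features, and 0 of the 10 passed the adjusted threshold. Hif1a, the alpha subunit most tied to glycolysis, overlapped at 0.21 (SE 0.17), and Epas1, which encodes HIF-2 alpha, had -0.12 (SE 0.17). The prolyl hydroxylase genes Egln1 and Egln3 are themselves HIF targets. Egln1 read -1.60, -1.32 and -1.36 on controls and -0.89, -0.74 and -1.20 on mutants, and Egln3 read -1.32, -1.22 and -0.98 on controls and -0.81, -0.21 and -0.78 on mutants. Both had every mutant above every control (5.19% of all features), with differences of 0.48 (SE 0.16) and 0.58 (SE 0.20).

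A list of 30 further HIF targets, which also holds Egln3, had 21 genes above 0, against 60% of all features, and a median of 0.26. In it 8 genes had all mutants above all controls and 1 had the reverse, against 5.19% and 3.75% of all features. At an unadjusted limma p below 0.05, 2 were higher (1.55% of all features), and 0 passed the adjusted threshold. Vegfa, the main vessel growth factor, read 2.24, 2.05 and 2.25 on controls and 2.64, 3.39 and 2.52 on mutants, a difference of 0.67 (SE 0.24). Gbe1, the glycogen branching enzyme, differed by 0.29 (SE 0.13). Not all known targets were higher. Angptl4, a lipase inhibitor, had -0.71 (SE 0.44) and Hmox1, heme oxygenase 1, had -0.36 (SE 0.31), both lowest on mutant 2.

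Other isoforms of these enzymes were divided between both directions. Of 30 listed isoforms and pyruvate genes 25 were tested, of which 11 were above 0 and 14 below, against 60% of all features above 0. The median was -0.04, against 0.04 for all features. In that list 0 genes had an unadjusted limma p below 0.05, against 1.55% higher and 1.88% lower among all features. The muscle isoforms Pgam2 and Eno3 varied widely within both groups. Pgam2, muscle phosphoglycerate mutase, read 4.24, 1.14 and 0.84 on controls and 3.04, -0.17 and 2.59 on mutants, and Eno3, muscle enolase, read 5.96, 3.29 and 3.34 on controls and 4.97, 2.84 and 4.35 on mutants. Acta1, skeletal muscle actin, had the same order at its extremes, with 6.98 on control 1 and 1.80 on mutant 2. The ubiquitous isoforms Pgam1, Eno1, Pfkl and Slc2a1 were lowest on control 1 and highest on mutant 2. Pfkm and the muscle glucose transporter Slc2a4 were also highest on control 1. Hk3, the hexokinase of myeloid cells, had a difference of -1.18 (SE 0.49).

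**Figure D3:**
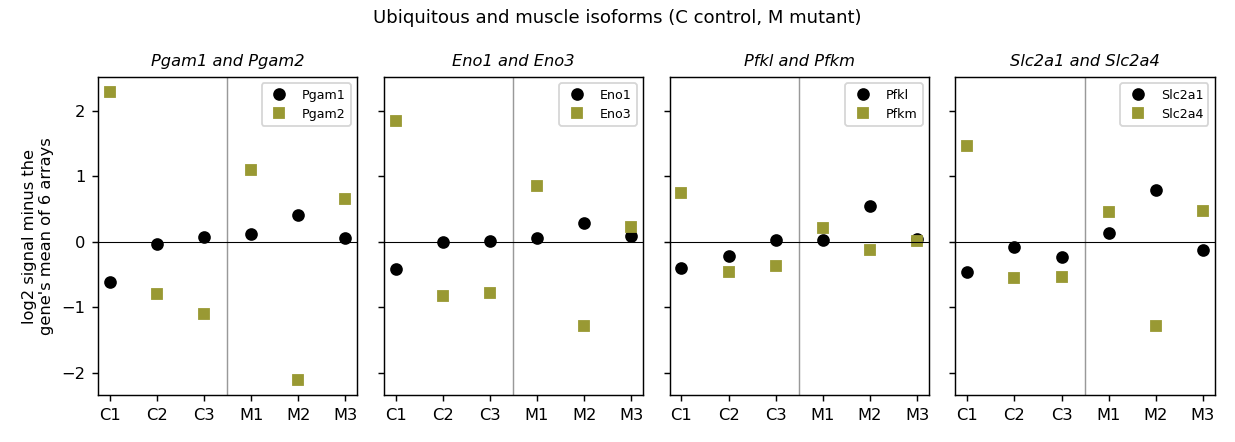
Log2 signal minus the gene's mean over 6 arrays, for a ubiquitous isoform (black circles) and a muscle isoform (olive squares) of the same function; C1 to C3 are controls and M1 to M3 mutants. Each muscle isoform is highest on control 1, whereas each ubiquitous isoform is lowest there and highest on mutant 2.

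Lists of cell type markers were set beside these genes. Each list's mean log2 signal is given here after subtracting each gene's mean over the 6 arrays. On that scale the glycolytic genes read -0.34, -0.08 and -0.05 on controls and 0.03, 0.35 and 0.08 on mutants, and the other HIF targets -0.39, -0.14 and -0.0035 on controls and 0.01, 0.46 and 0.07 on mutants. Chondrocyte markers shared the lowest and the highest array, with -0.33, -0.06 and 0.04 on controls and -0.01, 0.38 and -0.01 on mutants. Of those 16 markers 14 were above 0 (60% of all features), with a median difference of 0.27. At an unadjusted limma p below 0.05 there were 0 (1.55% higher and 1.88% lower of all features). Their summed signal, in multiples of the array's 75th percentile, was 3264 to 3925 on controls and 3619 to 4620 on mutants. The 10 hypertrophic chondrocyte markers read -0.36, 0.31 and 0.17 on controls and 0.08, -0.38 and 0.19 on mutants, lowest on mutant 2. Their median there was 0.13, against -0.39 on control 1, so the low mean came from part of the list. Ibsp, Mmp13 and Spp1 were lowest on mutant 2, whereas Col10a1, Ihh, Pth1r, Mef2c and Panx3 were highest there. Of the 10 hypertrophic markers, 7 were above 0 (60% of all features), with a median difference of 0.14. With the chondrocyte score as a covariate the median differences were 0.12 for glycolytic genes and 0.14 for HIF targets, against -0.02 for all features. In that fit 0 of the 35 genes kept an unadjusted limma p below 0.05, against 679 higher and 346 lower of 25494 features.

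Most markers of marrow, bone and vessel cells had differences below 0. In bulk tissue, fewer cells of a type and less RNA per cell cannot be told apart. Among all 25494 features, 10199 had a difference below 0. Summed signal of 11 osteoclast markers was 246 to 335 on controls and 36.5 to 169 on mutants, with 11 of 11 below 0. For 11 macrophage markers it was 35.98 to 45.6 and 10.6 to 32.5, again with 11 of 11 below 0. For 11 endothelial markers it was 52.1 to 66.2 and 28.0 to 62.3, with 10 of 11 below 0. All 3 lists were lowest on mutant 2. In each, 1 gene made up much of the sum: Acp5 46.6% to 72.4%, Csf1r 57.3% to 63.9% and Egfl7 40.8% to 60.2%. Without that gene the osteoclast sums were 69.9 to 92.5 on controls and 19.5 to 52.0 on mutants. The macrophage sums were then 13.0 to 17.7 and 4.43 to 12.6, and the endothelial sums 24.4 to 27.9 and 16.6 to 27.8. Neutrophil markers summed to 256 to 365 on controls and 214 to 270 on mutants, erythroid markers to 96.8 to 373 and 87.7 to 141, and B cell markers to 3.71 to 14.9 and 3.07 to 4.73. The neutrophil sum was mostly 1 probe, that of Csf3r (the G-CSF receptor), which made up 51.4% to 89.9% of it and differed by 0.04 between groups. Without Csf3r the sums were 30.2 to 177 on controls and 21.6 to 37.7 on mutants. The differences of the neutrophil, erythroid and B cell lists were below 0 for 12 of 13, 14 of 14 and 10 of 10 tested markers. Their sums were highest on controls 1 and 2. In these 3 lists control 3 did not lie above the mutants. Its centred means were -0.69, -1.05 and -0.97. The mutants' ran from -1.24 to -0.22, from -0.89 to -0.18 and from -0.94 to -0.21. Of their defining genes, Cxcr2, Rhag, Pax5, Rag1 and Rag2 did not pass the filter, and Cd163 was not above background on any array. With the mean score of the 3 marrow lists as a covariate, the median differences of the glycolytic genes and other HIF targets were 0.22 and 0.18.

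For 13 skeletal muscle markers the sum was 137 to 744 on controls and 88.3 to 478 on mutants, with the highest mean on control 1 and the lowest on mutant 2. Adipocyte markers, 17.5 to 28.4 and 5.99 to 27.4, were also lowest on mutant 2, and Lep was not above background on any array. Sost, among the osteoblast markers, was likewise at background. The others summed to 1351 to 1436 on controls and 1065 to 1389 on mutants. Col1a2 made up 71.6% to 75.6% of that sum, and without it the sums were 348 to 373 and 291 to 376. Beyond the refits with a covariate, the part of these cell types in the differences of the glycolytic genes and HIF targets was not tested. On the 4 arrays where Y-linked Ddx3y exceeded Xist (controls 2 and 3, mutants 1 and 2) the median differences were 0.25 and 0.24.

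**Figure D4:**
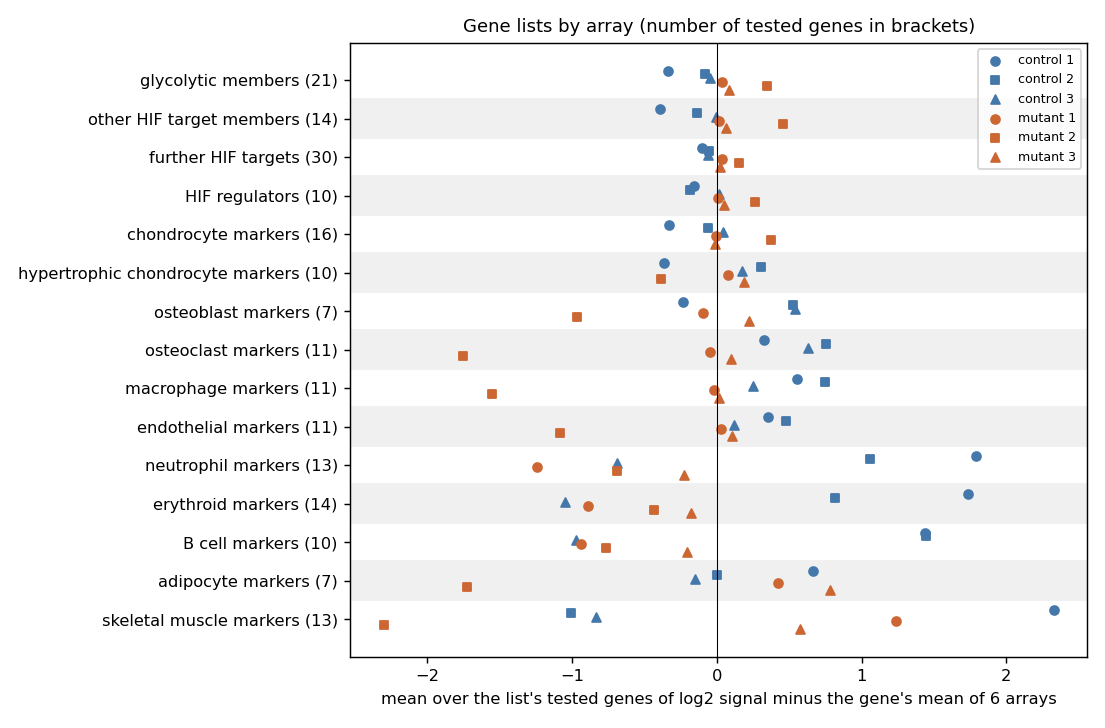
Mean over the tested genes of each list of the log2 signal minus the gene's mean over 6 arrays, with the number of tested genes in brackets; blue points are controls and orange points mutants. The glycolytic genes, the other HIF targets and the chondrocyte markers share the lowest array, control 1, and the highest, mutant 2. The macrophage, osteoclast, endothelial and muscle markers are lowest on mutant 2. The mean of the hypertrophic chondrocyte markers is also lowest there, at -0.38 against -0.36 on control 1, but their median is lowest on control 1.

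**Figure D5:**
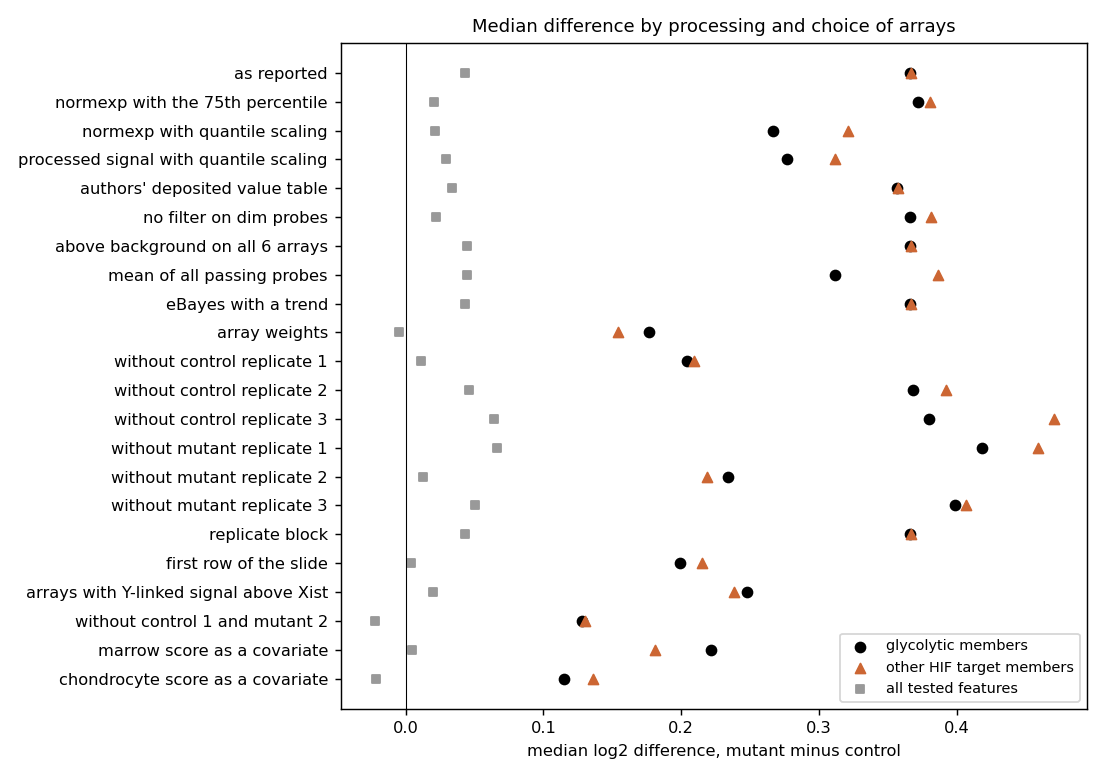
Median log2 difference, mutant minus control, of the 21 glycolytic genes (black circles), the tested other HIF targets (orange triangles) and all tested features (grey squares), under each processing and each choice of arrays. Both medians stay above 0 and above that of all features, from 0.12 and 0.13 at the lowest to 0.42 and 0.47 at the highest.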

How the data were processed

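RNA from tibial cartilage of 6 mice was measured on 1-colour Agilent arrays. The authors deposited, for each spot, intensity on a linear scale: a processed signal with background subtracted and the raw median signals of spot and local background. Per the submitters' processing notes the scans were read by Agilent Feature Extraction (10.7.1.1). The authors' deposited value table is a ratio of each feature to its array's 75th percentile, as inferred from its values (column medians 0.095 to 0.105). How it was made is not given in the sources used here.

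Accessions were matched to symbols of the RefSeq table of GRCm38.p6 (27656 of 55681 probes). From log2 of the processed signal, the log2 of the array's 75th percentile over 59305 spots other than controls was subtracted, outlier spots were left out and spots of a probe were averaged. Probes had to be well above background on at least 3 arrays, and each gene took its brightest probe, leaving 25494 tested features. Mutants and controls were tested two-sided by lmFit and eBayes (limma 3.58.1, R 4.3.3), adjusted by Benjamini-Hochberg over all features, with a threshold of 0.05. The procedure was checked on simulated data. Members and gene lists were chosen with earlier results of these data known. Values by array are given for the 6 members of each group with the smallest p, for Slc2a1, Hk2, Pgk1, Ldha, Pdk1, Bnip3, Car9, Ankrd37, Ndufa4l2 and Adm, and for members not above background; of each other list the 3 genes with the smallest p could be named, besides Adam10, Col2a1, Hif1a, Epas1, Egln1, Egln3 and Vegfa. Aldoa, Pgam2, Eno3, Pfkm, Slc2a4, Acta1 and any others were chosen after their values were seen. Alternatives are given at the end; the chondrocyte score as a covariate was added after the data were seen. The p-values measure the spread between mice on 1 slide.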

Additional observations from a re-analysis of the deposited data

How the results depend on the processing

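Of 735 refitted differences (35 genes under 21 alternatives), 0 passed the adjusted threshold in limma, the smallest adjusted p being 0.262, and 28 changed sign, in 8 genes. The medians stayed above 0 in each alternative. With control 1 and mutant 2 left out they were 0.13 (glycolytic) and 0.13 (other HIF targets), with the chondrocyte score as a covariate 0.12 and 0.14, with array weights 0.18 and 0.15, and with the marrow score 0.22 and 0.18; leaving out single arrays gave 0.20 to 0.42 and 0.21 to 0.47. The count at an unadjusted limma p below 0.05 and higher, 9, was 18 with normexp and quantile scaling (430 of 25494 features). It was 4 without a filter (633 of 36975) and 1 with the marrow score (329 of 25494). On arrays with Y-linked signal the count was 0 (413 of 25494). It was also 0 without control 1 and mutant 2 (1075) and with the chondrocyte score (679). Single arrays left out gave 0 to 6, against 293 to 559 of all features. Genes with all mutants below all controls numbered 0 to 1 with single arrays left out (Pfkfb4 without control 2). With fewer arrays such an order is easier to reach, and no share of all features is given beside that count. On mutant 1, the only mutant in the first slide row, 1 gene (Ddit4) lay below all controls, against 5207 of all 25494 features. Between mice of the same replicate number the correlations of deviations were 0.20, 0.06 and -0.16, which cannot show whether the mice were paired. With the replicate block 8 genes were higher at an unadjusted limma p below 0.05 (360 of 25494 features), and the medians were 0.37 and 0.37.

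Sign changes were at small differences. Slc2a3 turned to -0.088 (normexp with percentile), -0.078 (normexp with quantile), -2.9e-05 (authors' deposited table), -0.17 (array weights), -0.096 (first slide row), -0.19 (without control 1 and mutant 2) and -0.19 (chondrocyte score). Ldha turned to -0.094 (weights), -0.056 (first slide row), -0.020 (Y-linked), -0.079 (both arrays out) and -0.068 (chondrocyte score). Pfkfb4 turned to 0.041, 0.015, 0.029 and 0.024 (weights, first slide row, both out, chondrocyte score). Gpi1 was -0.048 and -0.053 with quantile scaling of the normexp and the processed signal, and Car12 -0.0037 on Y-linked arrays. Without both arrays, and with the chondrocyte score, P4ha1 was -0.017 and -0.035 and Pdk3 -0.035 and -0.014. With single arrays left out, Slc2a3 ran from -0.21 to 0.18, Ldha from -0.0076 to 0.20, Pfkfb4 from -0.061 to 0.012 and Ddit4 from -0.35 to 0.18. The cause of these changes was not tested. The number of arrays limits the precision.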

Other observations

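Isoforms of other organs were at background. The probes of Slc2a2 (the glucose transporter of liver and beta cells), Pklr (pyruvate kinase of liver and red cells), and Gapdhs and Pgk2 (isoforms of sperm) were not well above background on any of the 6 arrays. Mpc1 and Mpc2, the subunits of the mitochondrial pyruvate carrier, read 4.01, 3.91 and 3.85 and 3.02, 2.85 and 2.71 on controls, with differences of -0.02 (SE 0.12) and -0.06 (SE 0.13). Pdha1, a subunit of the pyruvate dehydrogenase that Pdk1 and Pdk3 inhibit, read 1.49, 1.44 and 1.29 on controls and 1.27, 1.16 and 1.16 on mutants. Its mutants all lay below its controls (3.75% of all features), the opposite order to Pdk1, at a difference of -0.21 (SE 0.12). Pdhb and Dlat, of the same enzyme complex, overlapped between groups, with differences of -0.26 (SE 0.46) and 0.05 (SE 0.16). These genes were chosen after their values were seen, and none passed the adjusted threshold in limma.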
